A study of Homo sapiens with 3 samples.

Results

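T24 cells, a human bladder carcinoma line, were examined for 36 genes of antigen presentation and of the ligands of the natural killer receptor NKG2D. The genes were chosen by name and function: MHC class I and class II chains, the machinery that makes and loads their peptides, the factors that drive their transcription, and the stress ligands MICA, MICB and ULBP1 to ULBP3. All 36 symbols matched a row of the 58381 genes in the count table. There were 3 RNA-seq libraries with 1 library per condition. Ctrl was untreated, RT was irradiated, and RT + shHDAC6 was irradiated and carried a lentiviral shRNA against HDAC6. The sample labels put the radiation dose at 10 Gy from a caesium source and describe selection with puromycin after infection. The control cells are described with an empty pLKO.1 vector in the labels and methods, and as parental cells where the study reports its results. The time from irradiation to harvest is not given in the sources used here. There was no unirradiated knockdown library, so the shRNA could be compared with its absence only in irradiated cells. A difference said to be with radiation is RT against Ctrl, and one said to be with the shRNA is RT + shHDAC6 against RT. With 1 library on each side, none of these differences has a replicate check.

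MHC class I molecules, a heavy chain paired with beta-2 microglobulin (B2M), show peptides from the cell's own proteins to cytotoxic T cells. The peptides are cut by the proteasome, pumped into the endoplasmic reticulum by the transporter TAP1-TAP2, trimmed by the aminopeptidases ERAP1 and ERAP2, and loaded with the help of tapasin (TAPBP). Class II molecules present peptides from the endosomal route and are mostly made by professional antigen-presenting cells, under the control of the transactivator CIITA. MICA, MICB and the ULBP proteins are induced on stressed or transformed cells and engage NKG2D on natural killer cells and T cells.

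Values of the 3 libraries are always given in the order Ctrl, RT and RT + shHDAC6. The libraries held between 35424086 and 41811165 counts, and the 36 genes took 0.178%, 0.226% and 0.188% of them. Counts were scaled by the trimmed mean of M-values (TMM) and are given as scaled CPM, that is, counts divided by the scaled library size. A count of 0 would allow up to 3 counts, or between 0.0662 and 0.0894 scaled CPM. The scaling raised every log2 ratio of RT against Ctrl by 0.22 over scaling by library totals, and moved those of RT + shHDAC6 against RT by -0.084. Intervals are 95% intervals from the exact binomial limits of the counts. They cover counting error only, since reads that carry no molecular identifier can be copies of one molecule, and the variation between cultures is not known. HDAC6, the target of the shRNA, had 3098, 2383 and 2170 counts, or 68.3, 71.0 and 62.0 scaled CPM. The library labelled as a knockdown thus kept 87.2% of the HDAC6 level of RT in these counts (log2 ratio -0.20, interval -0.28 to -0.11). For its knockdown cells the paper reports reduced HDAC6 mRNA by qPCR and reduced protein by Western blotting.

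The libraries also held RNA of genes that define other cell types. The 5 fibroblast markers (COL1A1, COL1A2, DCN, LUM and PDGFRA) summed to 10419, 5202 and 6676 counts. The 3 endothelial markers (PECAM1, CDH5 and VWF) summed to 1049, 486 and 674 counts, and the 7 leukocyte markers to 419, 221 and 254. None of the 15 was at 0 in any library. The defining leukocyte gene PTPRC had 120, 66 and 57 counts, and CD3E had 15, 14 and 17. Markers of the carcinoma line itself were abundant, with 121716 counts of VIM and 7336 of KRT18 in Ctrl. KRT7, a keratin of the urothelium, had 3533, 3854 and 597 counts and was called lower with the shRNA (log2 ratio -2.75). Of 5 urothelial differentiation genes, UPK2 and UPK3A had at most 3 counts in any library and UPK1A had 18, 2 and 2. GATA3 had 2320, 1423 and 709 counts and PPARG 1298, 650 and 352, and both were called lower with the shRNA (log2 ratios -1.07 and -0.95). In bulk RNA, fewer cells of a type and less RNA per cell cannot be told apart.

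Promoter sequences are shown for members that share elements, whether or not their direction of change was alike. They were taken from RefSeq (GRCh38.p14) and run 5′ to 3′ on the strand of the gene up to the base before its start site, 160 bases each. They are reference sequences and not those of the T24 alleles. RefSeq promoters were held for 31 of the 36 members, and not for HLA-E, HLA-DRA, CTSS, NLRC5 and CIITA. Capitals mark matches, on either strand, to the Y box CTGATTGG, to the short X box motif AACNGATG, to the interferon-stimulated response element core GAAANNGAA, or to the gamma-activated site TTCNNNGAA. Within the 250 bases before the start, these letters were found in 3.81%, 1.65%, 6.88% and 6.57% of 35116 promoters. Among the 42 promoters of the 31 members they were found in 7, 2, 13 and 3, each time in as many members. The first 3 windows belong to class I chains and carry the Y box at nearly the same place.
HLA-B, chr6:31357180-31357339 (- strand): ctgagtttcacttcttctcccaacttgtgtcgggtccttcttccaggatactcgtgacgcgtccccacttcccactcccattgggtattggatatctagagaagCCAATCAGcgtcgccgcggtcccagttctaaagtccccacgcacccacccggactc
HLA-C, chr6:31272093-31272252 (- strand): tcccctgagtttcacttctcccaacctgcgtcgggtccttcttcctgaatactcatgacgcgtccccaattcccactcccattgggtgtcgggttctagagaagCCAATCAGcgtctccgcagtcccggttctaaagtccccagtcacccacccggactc
B2M, chr15:44711357-44711516 (+ strand): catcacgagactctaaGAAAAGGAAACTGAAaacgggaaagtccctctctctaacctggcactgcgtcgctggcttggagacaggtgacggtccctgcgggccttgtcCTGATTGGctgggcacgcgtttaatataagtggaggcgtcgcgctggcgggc
Compared position by position without gaps, the 100 bases nearest the start were identical between HLA-B and HLA-C at 74 positions. A base inserted or lost in either window puts the bases beyond it out of register and lowers this count. The next 2 windows belong to the peptide transporter TAP1 and to tapasin, each with overlapping response element cores.
TAP1, chr6:32853705-32853864 (- strand): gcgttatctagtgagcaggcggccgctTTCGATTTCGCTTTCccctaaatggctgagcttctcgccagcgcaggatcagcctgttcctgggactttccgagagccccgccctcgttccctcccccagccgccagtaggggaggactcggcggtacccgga
TAPBP, chr6:33314079-33314238 (- strand): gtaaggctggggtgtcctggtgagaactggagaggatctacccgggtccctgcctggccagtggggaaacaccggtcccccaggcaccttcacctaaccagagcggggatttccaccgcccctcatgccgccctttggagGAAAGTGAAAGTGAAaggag
The last 3 windows belong to class II genes with the short X box motif, the Y box, or both.
HLA-DRB1, chr6:32589849-32590008 (- strand): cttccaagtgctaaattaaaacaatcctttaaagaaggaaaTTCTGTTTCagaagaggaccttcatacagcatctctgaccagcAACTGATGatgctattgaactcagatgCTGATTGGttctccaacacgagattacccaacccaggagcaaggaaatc
HLA-DMB, chr6:32941029-32941188 (- strand): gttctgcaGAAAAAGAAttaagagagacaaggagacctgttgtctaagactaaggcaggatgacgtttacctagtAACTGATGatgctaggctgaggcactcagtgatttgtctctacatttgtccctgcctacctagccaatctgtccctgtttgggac
HLA-DMA, chr6:32953098-32953257 (- strand): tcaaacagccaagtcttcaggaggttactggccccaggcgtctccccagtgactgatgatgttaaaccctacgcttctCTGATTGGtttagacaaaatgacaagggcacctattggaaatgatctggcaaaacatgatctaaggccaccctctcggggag
A match describes the letters of the window and is not evidence that a factor was bound.

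**Figure D1:**
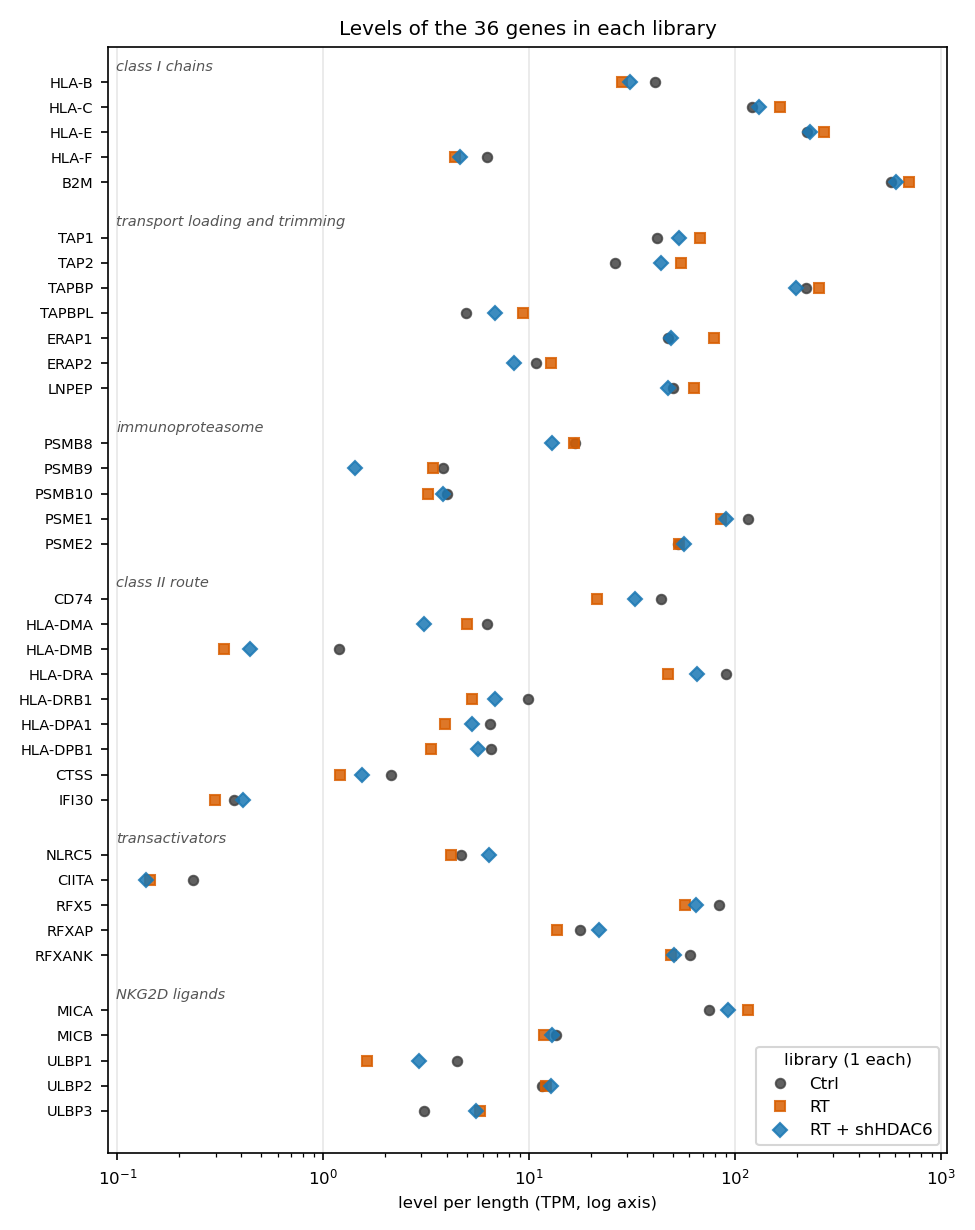
Level per length of each of the 36 genes (TPM, log axis, without TMM scaling) in the Ctrl, RT and RT + shHDAC6 libraries, 1 point per library, grouped by role. B2M is highest at 574 to 701 TPM, and most class II genes lie under 10 TPM.

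Levels per length were compared between genes as length-normalised counts (TPM), which carry no TMM factor. B2M was highest in all 3 libraries, with 574, 701 and 607 TPM. HLA-E, a heavy chain that presents leader peptides to natural killer cells, followed with 224, 270 and 231 TPM, and TAPBP with 222, 257 and 197. HLA-C lay at 120, 164 and 131 TPM, above HLA-B at 40.9, 28.3 and 30.9. Their counts lay closer, with 2797, 3538 and 2733 for HLA-C and 1754, 1122 and 1193 for HLA-B. The gap in TPM depends on the exon lengths used, 2507 bases for HLA-C and 4623 for HLA-B. Of the HLA-B length, 32.8% is shared with other genes on its strand. Of the class II genes, HLA-DRA was highest at 90.2, 47.3 and 65.5 TPM, followed by the invariant chain CD74 at 43.7, 21.4 and 32.6. CIITA, the class II transactivator, had 0.234, 0.145 and 0.138 TPM. At least 100 counts in every library were reached by 27 of the 36 members. The 4 members under 100 counts in every library were PSMB10, HLA-DMB, IFI30 and CIITA. IFI30, a lysosomal thiol reductase, had only 8, 6 and 8 counts and was left out of all calls.

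A member was called when it differed at least 1.5-fold with an interval that excluded no difference, provided that the higher library had 10 counts or more. For RT against Ctrl, 10 of the 35 members that reached this minimum were called higher (28.6%) and 5 lower (14.3%), where 12.2% and 13.0% of all 20267 genes tested were called higher and lower. The median log2 ratio was 0.13 over the members and -0.062 over all genes tested. With library totals in place of TMM the split was 6 higher and 8 lower, beside 6.61% and 22.9% of all genes. For RT + shHDAC6 against RT, 2 members were called higher (5.71%) and 4 lower (11.4%), beside 5.09% and 6.58% of 19013 genes tested, and the median was -0.021 beside -0.0032. With library totals the split was 5 higher and 4 lower, beside 6.70% and 5.34%. For RT + shHDAC6 against Ctrl, 4 were called higher (11.4%) and 3 lower (8.57%), beside 11.3% and 13.8% of 20374 genes tested, a share near the background. With library totals the split was 2 higher and 3 lower, beside 7.70% and 18.8%. The 3 comparisons share their libraries, so a high or low value in 1 library enters a pair of them.

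When every difference whose interval excluded 0 was counted, 15 members were higher and 11 lower for RT against Ctrl, beside 29.7% and 28.2% of all genes tested. Between the irradiated libraries, 8 were higher and 14 lower, that is 22.9% and 40.0% of the members beside 19.6% and 24.4% of all genes. For RT + shHDAC6 against Ctrl, 15 were higher and 9 lower, beside 29.7% and 28.7%. This count grows with depth, because a well-counted gene has a narrow interval.

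**Figure D2:**
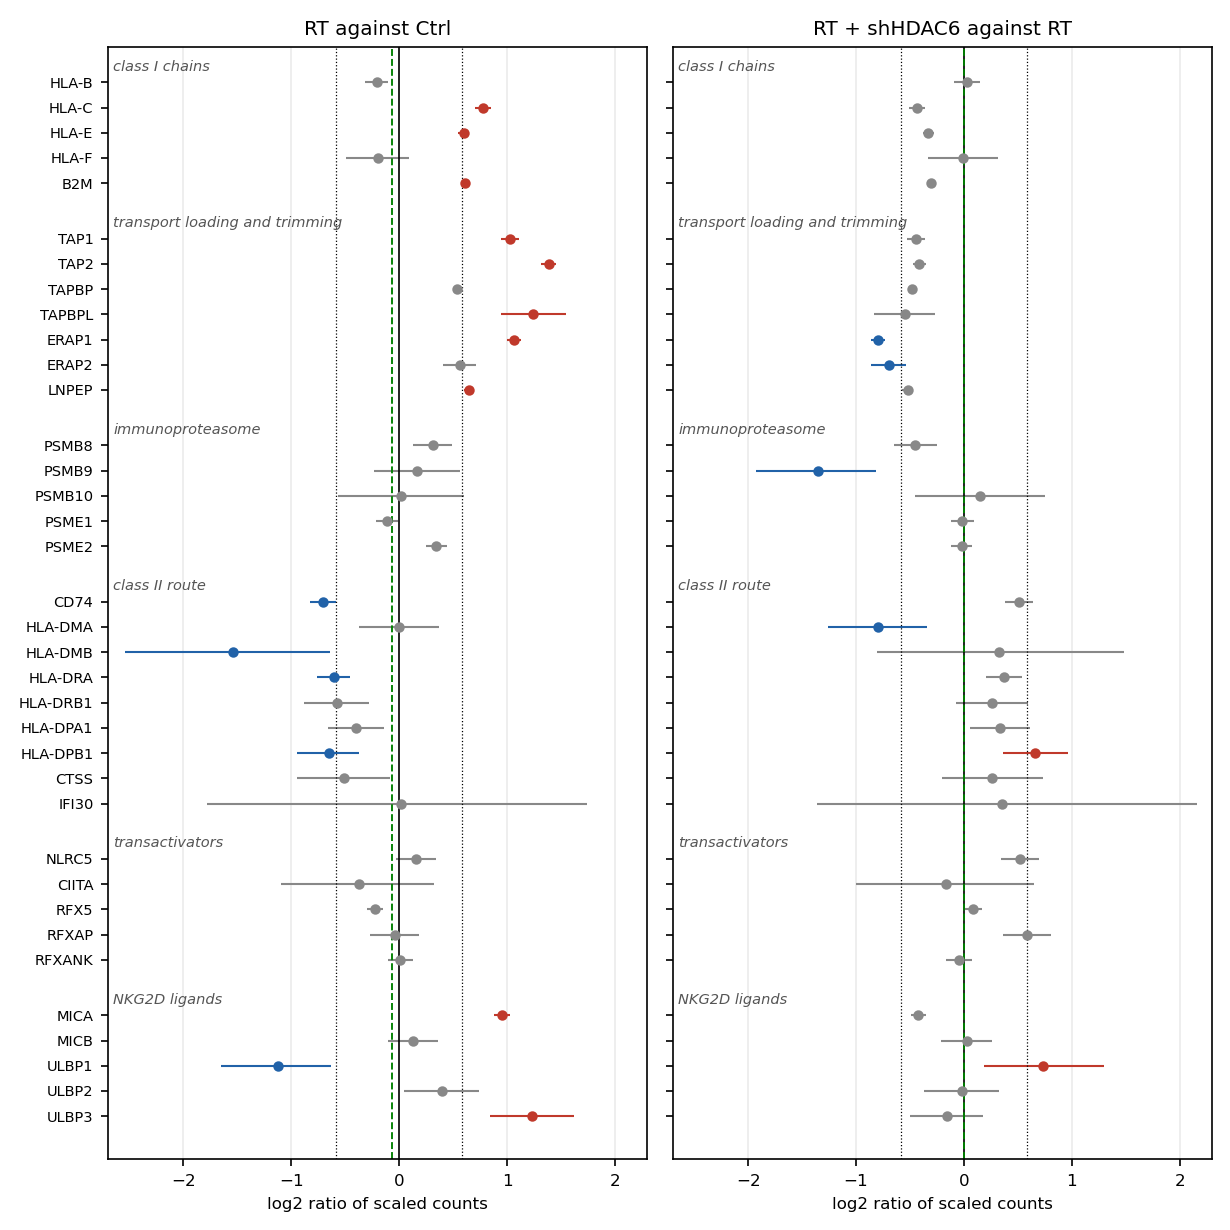
Log2 ratio of scaled counts with its 95% counting interval for each member, RT against Ctrl (left) and RT + shHDAC6 against RT (right), red where called higher, blue where called lower and grey otherwise. Dotted lines mark 1.5-fold and the dashed green line the median of all genes tested. All 7 genes of transport, loading and trimming lie right of 0 on the left and left of 0 on the right, and 7 of the 8 class II genes over the count minimum show the opposite, the exception being HLA-DMA.

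The genes of peptide transport, loading and trimming moved together. All 7 were above Ctrl in RT and under RT in the knockdown library, with every interval clear of 0, and these directions held under all 4 other scalings. Their summed level was 646, 1094 and 760 scaled CPM. For RT against Ctrl 5 of the 7 were called higher and none lower, beside 12.2% and 13.0% of all genes tested. With the shRNA 2 were called lower than in RT, beside 6.58% of all genes tested, and the median of the 7 was -0.52.

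TAP2, a subunit of the peptide transporter, had 2504, 4839 and 3793 counts, or 55.2, 144 and 108 scaled CPM. It was highest in RT and stayed well above Ctrl in RT + shHDAC6. Its log2 ratio was 1.39 (interval 1.32 to 1.46) for RT against Ctrl, higher than that of 98.3% of all genes tested, and -0.41 (interval -0.48 to -0.35) for RT + shHDAC6 against RT. TAP1, its partner subunit, had 1832, 2757 and 2119 counts, or 40.4, 82.2 and 60.5 scaled CPM. Its log2 ratios were 1.02 (interval 0.94 to 1.11) and -0.44 (interval -0.52 to -0.36). The ratio of TAP2 to TAP1 counts, which is free of the scaling, was 1.37, 1.76 and 1.79. TAP2 shares 19.5% of its exon length with an unnamed gene on the same strand, and TAP1 14.2% with the antisense gene PSMB8-AS1. How the counting treated such reads is not given in the sources used here.

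ERAP1, which trims peptides in the endoplasmic reticulum, was the one member called higher with radiation and then lower with the shRNA. It had 3467, 5363 and 3225 counts, or 76.5, 160 and 92.1 scaled CPM, with log2 ratios of 1.06 for RT against Ctrl and, against RT, -0.80 (interval -0.86 to -0.73). ERAP2, its partner enzyme, had 700, 763 and 491 counts and stood at 15.4, 22.7 and 14.0 scaled CPM. It was 0.56 higher on the log2 scale in RT, short of a call, and was called lower with the shRNA, at -0.70 (interval -0.86 to -0.53). Both enzymes thus ended near Ctrl, with log2 ratios of 0.27 and -0.14 for RT + shHDAC6 against Ctrl. LNPEP, an endosomal aminopeptidase of the same family, had 154, 241 and 168 scaled CPM. It was called higher in RT (log2 ratio 0.65) and was 0.52 below RT in RT + shHDAC6.

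TAPBP, the loading chaperone tapasin, had 302, 436 and 312 scaled CPM. It missed the call in RT with a log2 ratio of 0.53, and lay at -0.48 (interval -0.52 to -0.45) in RT + shHDAC6 against RT. TAPBPL, a tapasin relative that edits class I peptides, had only 146, 255 and 182 counts. Its log2 ratio was 1.24 (interval 0.94 to 1.54) for RT against Ctrl and -0.55 (interval -0.83 to -0.27) for RT + shHDAC6 against RT. Against Ctrl, TAP2 and TAPBPL were still called higher in RT + shHDAC6, at 0.97 and 0.69, and the call of TAPBPL was lost with library totals. The other 5 genes of the group were not called in that comparison.

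**Figure D3:**
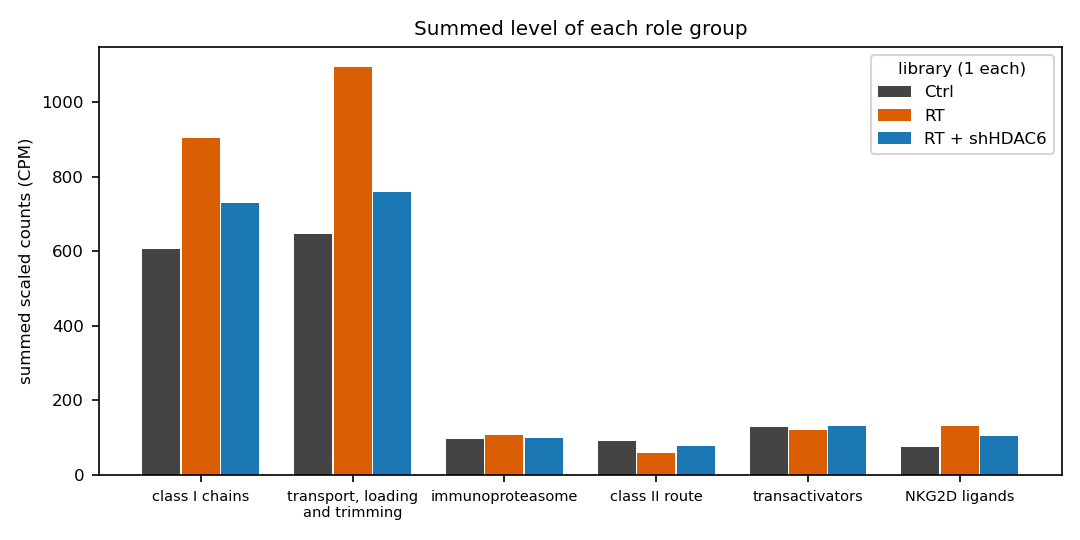
Summed scaled counts (CPM) of the members of each role group in the Ctrl, RT and RT + shHDAC6 libraries, 1 bar per library. Class I chains and the transport group are highest in RT at 905 and 1094 CPM, whereas the class II route is lowest in RT at 60.1 CPM.

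Of the class I chains, 3 of 5 were called higher in RT, beside 12.2% of all genes tested. B2M, the shared light chain, had 16608, 18764 and 15832 counts, or 366, 559 and 452 scaled CPM. Its log2 ratio was 0.61 (interval 0.58 to 0.64) for RT against Ctrl and -0.31 (interval -0.34 to -0.28) for RT + shHDAC6 against RT. HLA-C had 61.7, 105 and 78.1 scaled CPM, and differed by 0.77 (interval 0.70 to 0.85) with radiation and by -0.43 (interval -0.51 to -0.36) with the shRNA. HLA-E had 134, 202 and 161 scaled CPM, with log2 ratios of 0.60 and -0.33. These calls in RT lie close to the limit of 1.5-fold, and all 3 were lost with library totals, where the genes remained higher in RT.

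HLA-B and HLA-F did not follow. HLA-B had 1754, 1122 and 1193 counts, or 38.7, 33.5 and 34.1 scaled CPM, and was alike in both irradiated libraries. Its log2 ratio was -0.21 (interval -0.32 to -0.10) for RT against Ctrl and 0.026 (interval -0.092 to 0.15) for RT + shHDAC6 against RT. The ratio of HLA-B to HLA-C counts was 0.627, 0.317 and 0.437. On the log2 scale this ratio differed by -0.98 (interval -1.11 to -0.85) between RT and Ctrl, so HLA-B and HLA-C changed unequally whatever the scaling. HLA-F, a non-classical heavy chain, had 250, 161 and 167 counts and could not be told from Ctrl in RT at this depth (log2 ratio -0.20, interval -0.49 to 0.092). The heavy chains are near-identical and highly polymorphic, so that reads of T24 alleles may have been lost or shared between them, and 32.8% of the exon length of HLA-B is shared with other genes on its strand. HLA-B values are therefore uncertain.

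The immunoproteasome subunits PSMB8, PSMB9 and PSMB10 take the places of PSMB5, PSMB6 and PSMB7 in the proteasome of cells exposed to interferon. None of the 5 members of this group was called for RT against Ctrl. PSMB9 had 118, 98 and 40 counts, with similar scaled levels in Ctrl and RT. It was clearly lower in the knockdown library, at 1.14 scaled CPM, where its log2 ratio against RT was -1.35 (interval -1.92 to -0.81), the lowest of all members. Only 2.78% of all genes tested lay lower. Against Ctrl it was also called lower, at -1.19. PSMB8 had 536, 492 and 376 counts and differed by -0.45 (interval -0.65 to -0.25) between the irradiated libraries, short of a call. PSMB10 had 60, 45 and 52 counts, and its log2 ratio of 0.15 had an interval from -0.46 to 0.76.

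Shares within a library do not depend on scaling. PSMB8 made up 15.0%, 14.6% and 10.4% of the summed counts of PSMB8 and PSMB5, and the exact interval in RT + shHDAC6 was 9.41% to 11.4%. PSMB9 made up 2.87%, 3.31% and 1.42% of its pair with PSMB6, and the interval in RT + shHDAC6 was 1.01% to 1.92%. Both shares were lower in RT + shHDAC6 than in the other 2 libraries, and their intervals did not overlap those of Ctrl or RT. PSMB10 made up 1.33%, 1.32% and 1.49% of its pair with PSMB7, with overlapping intervals. The 17 genes of the constitutive proteasome and its assembly, among them PSMB5, PSMB6 and PSMB7, held no call in any of the 3 comparisons, and their median log2 ratio was -0.052 for RT + shHDAC6 against RT.

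**Figure D4:**
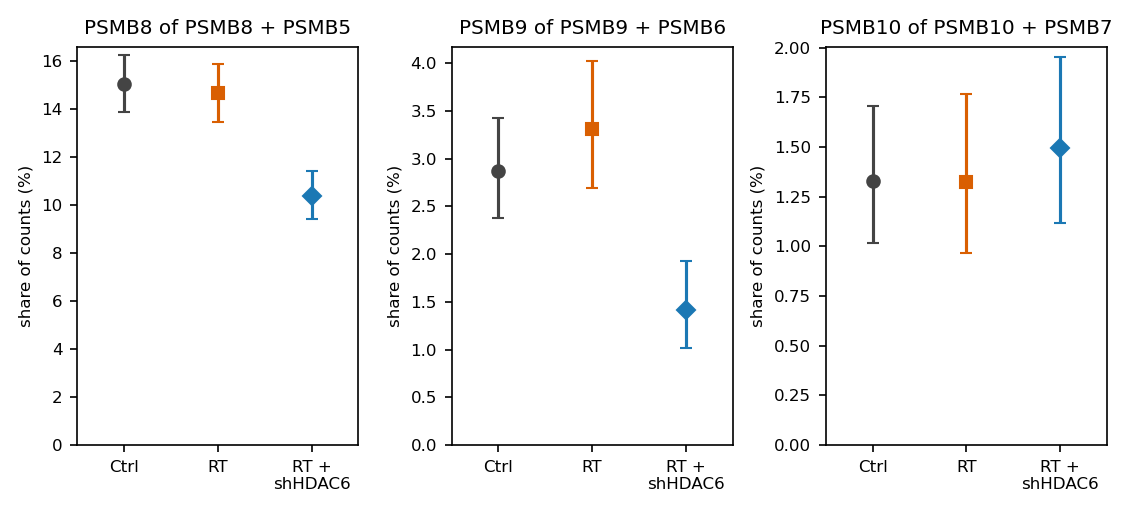
Share of each immunoproteasome subunit in the summed counts of itself and the constitutive subunit it replaces (%, axes from 0), by library, with exact 95% counting intervals. PSMB8 and PSMB9 are lowest in RT + shHDAC6 at 10.4% and 1.42%, and PSMB10 stays between 1.32% and 1.49%.

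PSMB9 and TAP1 lie head to head on chromosome 6, with RefSeq start sites 488 bases apart, and the TAP1 window printed above lies between them. Their counts did not keep one ratio. PSMB9 made up 6.05%, 3.43% and 1.85% of the summed counts of the pair, and the exact intervals of the 3 libraries did not overlap. The proteasome activator subunits PSME1 and PSME2, which form 1 ring on the proteasome, were not called in any comparison. PSME1 had 1903, 1301 and 1346 counts, and PSME2 had 1752, 1642 and 1689.

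Most class II genes moved the other way from the transport genes, less clearly so between the irradiated libraries. Their summed level, 9 genes of the class II route, was 91.8, 60.1 and 79.1 scaled CPM. Of the 8 that reached the count minimum, 4 were called lower with radiation and none higher, with a median log2 ratio of -0.59. Of all genes tested, 13.0% were called lower and 12.2% higher. Between the irradiated libraries HLA-DPB1 was called higher and HLA-DMA lower, with a median of 0.33. In that comparison 4 of the 8 had intervals above 0 and 1 below, and the rest included 0. CD74, the invariant chain that escorts class II molecules to endosomes, had 1834, 830 and 1234 counts, or 40.4, 24.7 and 35.2 scaled CPM. Its log2 ratios were -0.71 (interval -0.83 to -0.59) for RT against Ctrl and 0.51 (interval 0.38 to 0.64) for RT + shHDAC6 against RT.

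HLA-DRA, the alpha chain of HLA-DR, had 1041, 505 and 681 counts, or 23.0, 15.1 and 19.4 scaled CPM. Its log2 ratios were -0.61 (interval -0.76 to -0.45) and 0.37 (interval 0.20 to 0.54), and its call in RT was lost with pairwise TMM factors and with median-of-ratios factors. Its ratio to CD74 counts was 0.568, 0.608 and 0.552. HLA-DRB1, the beta chain of HLA-DR, had 283, 140 and 175 counts, and it has near-identical relatives that could take some of its reads. Its log2 ratio of -0.58 for RT against Ctrl fell just short of a call. HLA-DPA1 had 344, 193 and 254 counts and HLA-DPB1, its partner chain, had 317, 149 and 246. HLA-DPB1 was called lower in RT (log2 ratio -0.65) and higher again in RT + shHDAC6 (0.66, interval 0.36 to 0.97), which returned it to 7.03 scaled CPM beside 6.99 in Ctrl.

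The HLA-DM chains exchange class II peptides in endosomes. HLA-DMB, with 51, 13 and 17 counts, was called lower in RT at -1.54 (interval -2.54 to -0.64), a value that rests on few reads. HLA-DMA had 146, 108 and 65 counts. Unlike the other class II genes over the count minimum, it stood at 3.22 scaled CPM in both Ctrl and RT and was called lower in RT + shHDAC6, at 1.86 scaled CPM (log2 ratio against RT -0.79, interval -1.26 to -0.34). CTSS, the protease that degrades the invariant chain, had 137, 71 and 89 counts and was not called. Its log2 ratio for RT against Ctrl was -0.51 (interval -0.95 to -0.089).

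The fibroblast and endothelial markers moved in the same directions as the class II chains, and so did some markers of the carcinoma line itself. CD74, HLA-DRA, HLA-DRB1, HLA-DPA1 and HLA-DPB1 summed to 3819, 1817 and 2590 counts. On the log2 scale the sum differed by -0.64 with radiation (interval -0.72 to -0.56) and by 0.45 with the shRNA (interval 0.36 to 0.54). The summed fibroblast markers had -0.57 (interval -0.62 to -0.52) and 0.30 (interval 0.25 to 0.35). The summed endothelial markers had -0.67 (interval -0.83 to -0.52) and 0.41 (interval 0.24 to 0.58). The summed leukocyte markers had -0.49 (interval -0.73 to -0.25) and 0.14 (interval -0.13 to 0.41). Of the 6 markers of the line, KRT19 had -0.67 and 0.39, KRT8 had -0.49 and 0.35, and VIM had -0.28 and 0.31. The other 3 were higher in RT than in Ctrl, namely CD44 (1.04), KRT18 (0.62) and KRT7 (0.56).

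Within each library, the 5 class II genes had 0.367, 0.349 and 0.388 counts per fibroblast marker count. This ratio differed by -0.070 with radiation (interval -0.16 to 0.024) and by 0.15 with the shRNA (interval 0.050 to 0.25). Per endothelial marker count they had 3.64, 3.74 and 3.84 counts, a ratio whose difference between RT and Ctrl was 0.038 on the log2 scale (interval -0.14 to 0.21), and 0.040 between the irradiated libraries (interval -0.15 to 0.23). Per leukocyte marker count they had 9.11, 8.22 and 10.2 counts, a difference of -0.15 with radiation (interval -0.40 to 0.10) and of 0.31 with the shRNA (interval 0.036 to 0.58). Against the summed class I heavy chains, in contrast, the ratio was 0.352, 0.157 and 0.266, a difference of -1.17 (interval -1.26 to -1.08) between RT and Ctrl. These ratios were chosen after the marker values had been seen. The part of RNA from other cell types in the class II differences was not tested.

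**Figure D5:**
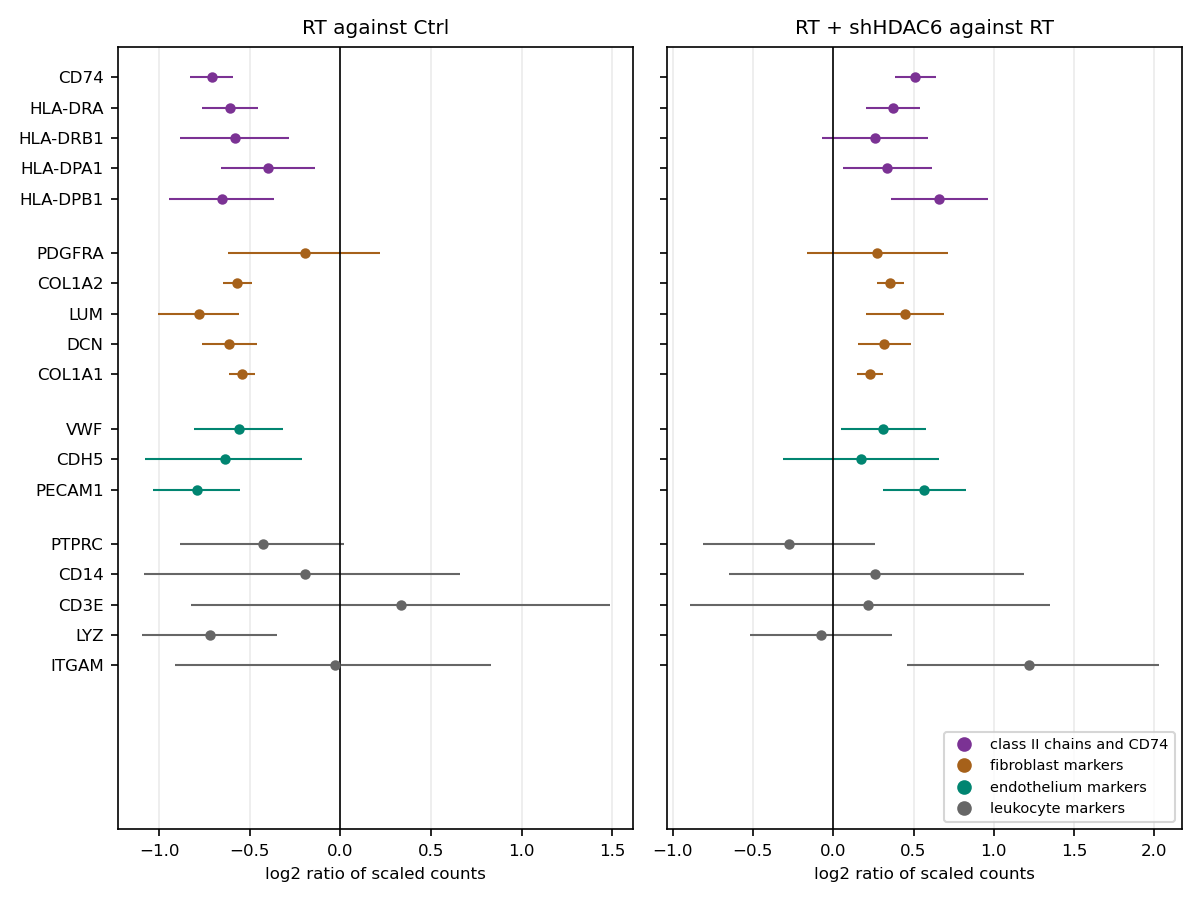
Log2 ratio of scaled counts with its 95% counting interval for CD74 and 4 class II chains beside the fibroblast, endothelial and leukocyte markers with at least 10 counts in every library, RT against Ctrl (left) and RT + shHDAC6 against RT (right). The class II genes, the fibroblast markers and the endothelial markers all lie left of 0 on the left and right of 0 on the right, whereas the leukocyte markers scatter.

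Among the transactivators, no gene was called for RT against Ctrl or for RT + shHDAC6 against RT. With library totals NLRC5 and RFXAP were called higher in the latter comparison, and RFXAP also with upper quartile factors. NLRC5, the class I transactivator, had 537, 442 and 660 counts, or 11.8, 13.2 and 18.8 scaled CPM. It was highest in RT + shHDAC6, where its log2 ratio was 0.52 (interval 0.34 to 0.69) against RT and 0.67 (interval 0.50 to 0.84) against Ctrl, the latter a call that was lost with library totals. In RT + shHDAC6, TAP1, TAP2 and B2M lay under their levels in RT but above those in Ctrl, with log2 ratios of 0.58, 0.97 and 0.30 against Ctrl. A link between NLRC5 and these genes was not tested. CIITA had 49, 28 and 26 counts, and its interval for RT against Ctrl, from -1.10 to 0.33, was too wide to tell its level in RT from Ctrl at this depth.

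RFX5, RFXAP and RFXANK form the complex that binds the X box. RFX5 stood at 77.6, 66.3 and 70.3 scaled CPM, and RT differed from Ctrl by -0.23 on the log2 scale (interval -0.30 to -0.15). RFXAP had 376, 270 and 422 counts, and its difference of 0.58 between the irradiated libraries (interval 0.36 to 0.81) was just short of a call. RFXANK had 31.1, 31.3 and 30.3 scaled CPM.

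The NKG2D ligands did not move as 1 group. MICA was by far the most abundant per length, with 74.8, 116 and 92.4 TPM, and it was followed by MICB with 13.6, 11.9 and 13.0 and ULBP2 with 11.5, 12.1 and 12.8 TPM, which lay close together. MICA had 2671, 3818 and 2972 counts, or 58.9, 114 and 84.9 scaled CPM. Its log2 ratio was 0.95 (interval 0.88 to 1.02) for RT against Ctrl, where it was called higher, and -0.42 (interval -0.49 to -0.35) for RT + shHDAC6 against RT. MICB had 352, 285 and 303 counts and 7.76, 8.50 and 8.65 scaled CPM, with no call. The ratio of MICA to MICB counts was 7.59, 13.4 and 9.81, a difference of 0.82 (interval 0.58 to 1.06) on the log2 scale between RT and Ctrl. The MIC genes resemble each other, so some reads may have been shared between them.

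ULBP1 and ULBP3 went opposite ways with radiation. ULBP3 had 89, 154 and 144 counts, or 1.96, 4.59 and 4.11 scaled CPM. It was called higher in RT at 1.23 (interval 0.84 to 1.62) and stayed called higher than Ctrl in RT + shHDAC6 at 1.07 (interval 0.68 to 1.47). ULBP1 had 133, 45 and 78 counts, or 2.93, 1.34 and 2.23 scaled CPM. It was called lower in RT at -1.13 (interval -1.65 to -0.63) and, between the irradiated libraries, higher with the shRNA at 0.73 (interval 0.18 to 1.29). ULBP2 had 143, 139 and 143 counts, and differed by 0.39 (interval 0.047 to 0.74) with radiation and by -0.021 (interval -0.37 to 0.33) for RT + shHDAC6 against RT. Of the relatives and shedding proteases of these ligands, RAET1E had 28, 1 and 17 counts, so that its log2 ratio of -4.37 for RT against Ctrl had an interval from -9.73 to -1.78.

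Genes that work beside the class I pathway were read from a list of 10 genes, most of them for folding, translocation and signal-peptide processing in the endoplasmic reticulum. For RT against Ctrl 4 were called higher (40%) and none lower, beside 12.2% and 13.0% of all genes tested. The median log2 ratio of the list was 0.56. The 4 called genes were SEC61A1 of the translocon (log2 ratio 1.39), the signal peptide peptidase HM13 (202 scaled CPM against 482 in RT), the chaperone CANX (0.71) and SPPL2A (0.61), an endosomal protease that cleaves the remnant of CD74. None was called for RT + shHDAC6 against RT, where the median was -0.32 and 9 of the 10 lay below 0. Of 13 genes of the endosomal route and of the factors that bind the X and Y boxes, 4 lysosomal proteases were called higher in RT, namely CTSL (1.09), LGMN (0.97), CTSD (0.97) and CTSB (0.69). This was 30.8% of the list, beside 12.2% of all genes tested. With the shRNA, CTSB was called lower than in RT, at -0.74. These 4 proteases were higher in RT, the library in which the class II chains were lowest, but not every protease was. CTSH of the same list had 169, 93 and 98 counts and was not called. Its log2 ratio for RT against Ctrl was -0.43 (interval -0.81 to -0.053), and CTSS was also lower in RT. A link between these proteases and the class II chains was not tested.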

How the data were processed

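RNA-seq read counts of 3 T24 libraries, 1 per condition, were used. The read counts the authors deposited are whole numbers without normalisation, made by trimming with cutadapt, alignment to GRCh38 with STAR (2.6.1a in the submitters' processing notes; another release in the paper's methods) and counting on GENCODE release 28 genes with featureCounts. Strand and multi-mapping settings are not given in the sources used here. Names, positions and exon lengths came from GENCODE release 44, which matched 57754 of 58381 genes. All sample columns were used.

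TMM factors were computed over the 3 libraries jointly with edgeR 4.0.16 (R 4.3.3), so that each library has 1 level per gene, and were used only for scaling. Log2 ratios were given 95% Clopper-Pearson intervals with scipy 1.17.1, and log2 differences of within-library ratios the normal interval of the log odds ratio. With 1 library per condition no test could be fitted and no p-value is given. The study's NOISeq calls rest on simulated noise and were not used. A gene was called at 1.5-fold or more, with an interval excluding 0, where the higher library had 10 counts or more. The calls and intervals were tested on data simulated with counting error only and with the scaling known. That test does not cover the TMM factors or the variation between cultures. Promoters came from RefSeq, and the TAP1 window was checked against the GRCh38 genome. Every member may be named. Of the other lists, called genes are named, up to 4 per list and comparison, and CTSH, which was not called, is named beside the proteases of its list. The members, lists and rules were chosen with earlier results of these data known. Alternatives covered 4 scalings, including DESeq2 1.42.0 size factors, 2 count minimums and 3 rules of a call. The level of 1 leukocyte marker is not reported here.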

Additional observations from a re-analysis of the deposited data

How the results depend on the processing

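With 1 library per condition no replicate could be left out. No paired analysis was possible because each group holds 1 library. With library totals in place of TMM, RT against Ctrl held 6 members called higher and 8 lower (6.61% and 22.9% of all genes), with a median log2 ratio of -0.087 over the members and -0.28 over all genes. RT + shHDAC6 against RT then held 5 higher (6.70% of all genes), and RT + shHDAC6 against Ctrl 2 higher (7.70%). That scaling lost the calls of HLA-C, HLA-E, B2M and LNPEP in RT and added HLA-DRB1, HLA-DPA1 and CTSS as lower. It added CD74, NLRC5 and RFXAP as higher with the shRNA, and lost TAPBPL and NLRC5 against Ctrl. With a 2-fold limit, RT against Ctrl held 5 higher and 2 lower (4.15% and 6.15% of all genes), RT + shHDAC6 against RT held 0 higher and 1 lower (2.73% and 3.69%), and RT + shHDAC6 against Ctrl held 1 higher (4.25%). With a fold limit midway between 1 and 1.5, RT against Ctrl held 8 lower (20.4%), RT + shHDAC6 against RT held 7 higher and 13 lower (9.06% and 12.3%), and RT + shHDAC6 against Ctrl held 9 higher (20.6%). With at least 100 counts, RT + shHDAC6 against RT held 1 higher (3.0%). The other 57 counts and medians stayed within 1.5 times or within the counting interval, and no called member changed direction under the 4 other scalings. Few counts limit HLA-DMB, IFI30, CIITA, PSMB9, PSMB10 and ULBP1, each with at most 45 counts in some library. The variation between cultures is not known from these libraries.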

Other observations

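The MHC region on chromosome 6, taken from HLA-F to HLA-DPB1 (chr6:29722775-33089696), held 16 of the 36 members and 121 other protein-coding genes, of which 119 were in the table and 81 reached 10 counts in RT or Ctrl. For RT against Ctrl 15 of the 81 other genes were called higher and 10 lower, beside 5 and 3 of the 16 members. These were 18.5% and 12.3% of the other genes and 31.25% and 18.75% of the members. Of all genes tested, 12.2% were called higher and 13.0% lower. The median log2 ratio was 0.17 over the other genes and 0.065 over the members there. Among the other genes the largest call was that of ABHD16A at 1.02 and the lowest that of SAPCD1 at -1.64. For RT + shHDAC6 against RT, 3 of the other genes were called higher and 3 lower, beside 1 and 2 of the members. These were 3.70% and 3.70% of the other genes and 6.25% and 12.5% of the members, beside 5.09% and 6.58% of all genes tested.

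Of 13 genes of interferon signalling upstream of the members, IFNGR1 (log2 ratio 0.75) and IFNAR1 (0.59), both receptor chains, were called higher with radiation. This was 15.4% of the list, near the 12.2% of all genes tested. None was called for RT + shHDAC6 against RT. The median log2 ratio of the 13 was 0.17 with radiation, and -0.17 between the irradiated libraries. IFNGR1 was also called higher against Ctrl with the shRNA, at 0.68.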
